A study of Mus musculus with 8 samples.

Results

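The microglial genes described here are 10 genes that mark the resident macrophages of the brain, namely Csf1r, Cx3cr1, P2ry12, Tmem119, Aif1, C1qa, C1qb, C1qc, Trem2 and Tyrobp. They were taken by gene symbol and not by a cut on measured values, but the list was chosen with earlier results of these data known. All 10 were found among the 22726 gene symbols listed at every stage. RNA of embryonic mouse hypothalamus had been sequenced from Foxd1-mutant embryos and from wild-type embryos at 3 stages, E12.0, E12.5 and the later E17.5, where E gives the embryonic day. Foxd1 encodes a forkhead transcription factor, and the series asks how its loss alters the developing hypothalamus. There were 4 mutant and 4 wild-type libraries, of which each genotype had 1 at either early stage and 2 at the late one. Each library came from RNA pooled over embryos, out of 8 Foxd1-null and 10 control embryos in the whole study. The allele, the strain and the number of embryos in each pool are not given in the sources used here, and the submitters’ account of dissection names E12.5 and E17.5 but not E12.0. The controls are described in wording that could mean either genotype, so the source names of the libraries were used for genotype.

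Microglia are the brain's own phagocytes. They descend from yolk sac progenitors that enter the neural tube at midgestation, multiply there and take on a branched shape as the brain matures. Their survival needs signals through Csf1r, and they clear dying cells and prune synapses, in part with the aid of the complement protein C1q. In the hypothalamus, as elsewhere in the brain, they form a small share of all cells, so bulk RNA of the tissue holds their transcripts at low levels.

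Of the 10 genes, 6 had a promoter in the RefSeq table of mouse build GRCm38.p6. Those of C1qb, C1qc and P2ry12 are shown because they hold a longer motif with the GGAA core that ETS family factors read, a family that includes PU.1, the product of Spi1 and a master regulator of myeloid cells. Each stretch is the 250 bases before the annotated start, 5′ to 3′ on the strand of the gene, and capitals mark GAGGAA or AGGAAGT on either strand. C1qb lies at chr4:136886201-136886450 on the minus strand, C1qc at chr4:136892915-136893164 on the minus strand, and P2ry12 at chr3:59262986-59263235 on the minus strand.
C1qb: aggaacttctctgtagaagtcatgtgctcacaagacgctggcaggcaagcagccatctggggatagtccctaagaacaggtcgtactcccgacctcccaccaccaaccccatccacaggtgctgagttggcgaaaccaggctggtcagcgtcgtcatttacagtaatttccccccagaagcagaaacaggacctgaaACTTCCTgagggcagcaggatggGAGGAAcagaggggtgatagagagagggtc
C1qc: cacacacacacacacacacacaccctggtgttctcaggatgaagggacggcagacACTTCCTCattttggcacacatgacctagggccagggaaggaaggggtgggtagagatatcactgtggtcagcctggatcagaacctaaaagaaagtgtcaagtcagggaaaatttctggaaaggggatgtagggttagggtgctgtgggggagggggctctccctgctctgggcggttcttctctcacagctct
P2ry12: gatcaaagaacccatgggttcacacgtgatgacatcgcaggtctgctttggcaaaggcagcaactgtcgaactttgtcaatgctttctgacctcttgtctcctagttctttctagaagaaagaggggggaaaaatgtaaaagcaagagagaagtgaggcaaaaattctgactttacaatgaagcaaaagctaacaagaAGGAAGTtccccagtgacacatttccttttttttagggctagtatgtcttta

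The C1qb promoter held both motifs, with AGGAAGT read on the opposite strand. In C1qc the 2 motifs overlapped, again on the opposite strand, and in P2ry12 AGGAAGT lay 52 to 46 bases before the start. AGGAAGT was present in 3 of the 6 promoters of microglial genes, against 7.69% of 32851 mouse promoters of the same length. GAGGAA was present in 4 of the 6 (C1qb, C1qc, Aif1 and Trem2), against 23.3% of all. The ETS-IRF composite element, GGAA and GAAA set 2 bases apart, was in 0 of the 6 and in 2.30% of all. These matches describe the letters of the window and no binding was measured.

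Foxd1 itself was at 2.77 FPKM in the mutant against 25.0 FPKM in the wild-type library at E12.0, at 2.497 against 30.3 at E12.5, and at 0.396 and 0.230 against 3.90 and 1.96 at E17.5, so each library lay on the side that its label gives. FPKM is the number of fragments per kilobase of transcript, scaled to the size of the library, as deposited. Sequencing depth, worked out from the value that 1 fragment adds, was 30.3 to 43.4 M fragments at E17.5. The estimate is uncertain for E12. There it gave 16.9 M for the mutant against 4.03 M for the wild-type library of E12.0, and 12.4 M against 56.2 M at E12.5. By the same estimate the 10 genes together rested on 413 fragments in the mutant and 65.3 in the wild-type library at E12.0, and on 2985 to 4731 in each E17.5 library. Between 11572 and 13219 genes reached 1 FPKM in each library. The E12 values (E12.0 and E12.5) and the E17.5 values were summarised separately, by gene and by transcript, so levels across that step are described and not tested.

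The 10 microglial genes were expressed at low levels in the E12 hypothalamus and were higher at E17.5, in mutant and wild-type alike. Their summed level was 15.5 FPKM in the mutant against 9.76 in the wild-type library at E12.0, and 25.0 against 25.1 at E12.5. In the late libraries it was 77.7 and 65.8 FPKM in the mutant libraries, against 71.9 and 67.0 FPKM in the wild-type libraries. The 2 genotypes overlapped there, with means of 71.8 ± 8.42 FPKM in the mutant and 69.5 ± 3.41 FPKM in the wild type (SD, n = 2 each). No microglial gene passed the threshold between genotypes at E17.5, at E12 or over all stages. In bulk tissue, fewer microglia and less RNA per cell cannot be told apart.

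**Figure D1:**
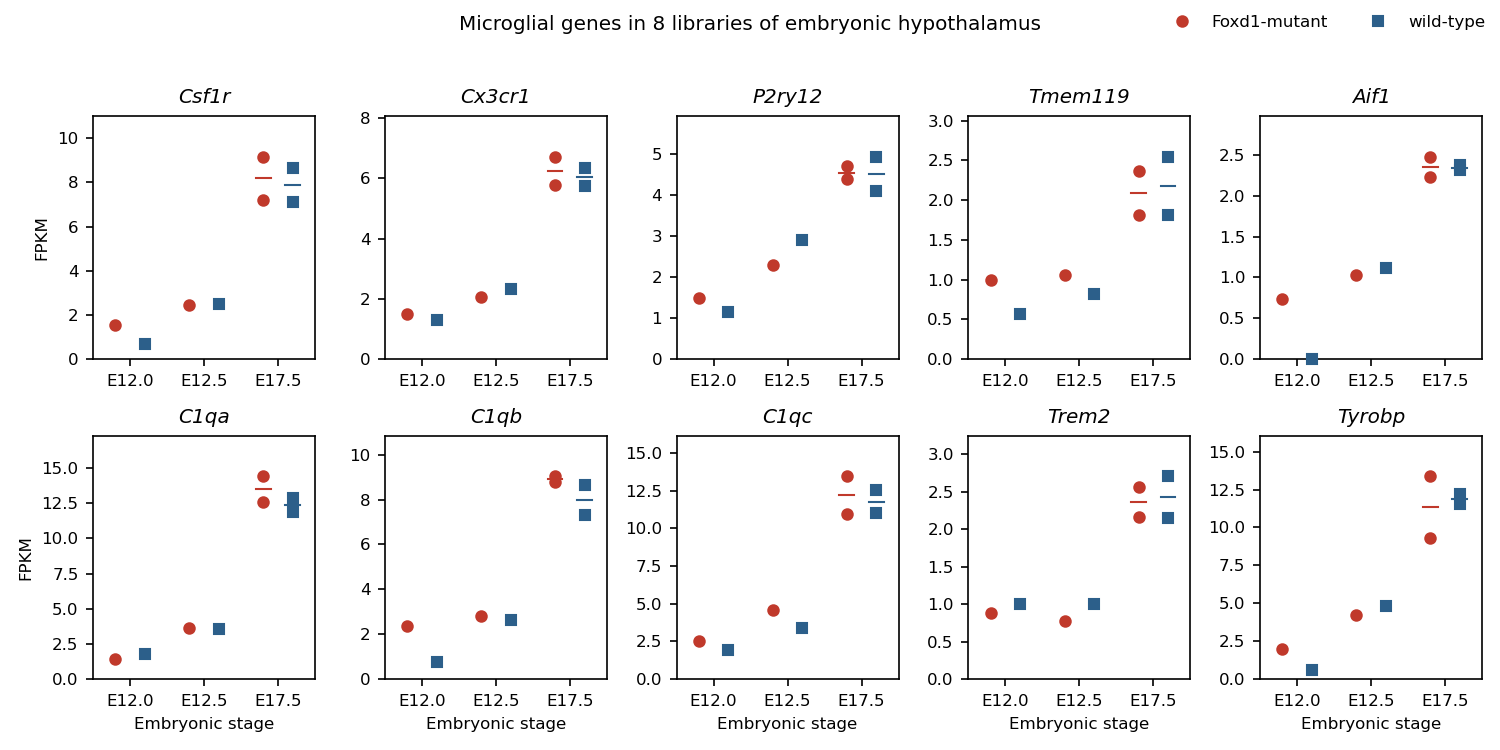
FPKM (vertical axis, linear from 0) of each of the 10 microglial genes in each library by embryonic stage, with Foxd1-mutant libraries as red circles left of wild-type libraries as blue squares and short lines for the means of 2 libraries at E17.5. For every gene the 4 libraries of E17.5 lie above the 4 of E12, and at E17.5 the genotypes overlap for every gene except C1qb.

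Csf1r, the receptor for the growth factors CSF1 and IL-34 on which microglia depend, was at 1.56 FPKM in the mutant against 0.703 FPKM in the wild-type library at E12.0, and at 2.46 against 2.51 at E12.5. Its E17.5 level was 9.17 and 7.20 FPKM in the mutant libraries, against 8.68 and 7.14 FPKM in the wild-type libraries. The genotypes overlapped at E17.5, and the gap between libraries of one genotype was wider than that between the genotypes. The difference, mutant minus wild-type on the log2(FPKM + 1) scale used throughout, was 0.04 (SE 0.133, limma adjusted p = 0.920).

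Cx3cr1, the receptor for the neuronal chemokine fractalkine, was at 1.52 FPKM in the mutant against 1.30 in the wild-type library at E12.0, and at 2.07 against 2.33 at E12.5. Its E17.5 level was 6.72 and 5.77 FPKM in the mutant libraries, against 6.33 and 5.75 FPKM in the wild-type libraries. One library of each genotype lay above 6 FPKM and the other close to 5.8, so the genotypes overlapped (difference 0.04, SE 0.0920, limma adjusted p = 0.891). P2ry12, the purine receptor by which microglial processes sense ATP and ADP, was at 1.49 FPKM in the mutant against 1.16 in the wild-type library at E12.0, and at 2.29 against 2.91 at E12.5. The E17.5 levels were 4.39 and 4.71 FPKM in the mutant libraries, between the 4.10 and 4.94 FPKM of the wild-type libraries. The difference was 0.01 (SE 0.0977, limma adjusted p = 0.972).

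Tyrobp, the adaptor DAP12 that passes the signal of Trem2 and other receptors into the cell, had the widest spread between the mutant libraries at E17.5 among the 10 genes. It was at 1.996 FPKM in the mutant against 0.570 in the wild-type library at E12.0, and at 4.26 against 4.82 at E12.5. Its E17.5 values were 13.4 and 9.33 FPKM in the mutant libraries, on either side of the 11.6 and 12.2 FPKM of the wild-type libraries, and the difference was -0.08 (SE 0.154, limma adjusted p = 0.864). Trem2, a lipid-sensing receptor that signals through Tyrobp, was at 0.879 FPKM in the mutant against 0.995 in the wild-type library at E12.0, and at 0.781 against 1.01 at E12.5. The late libraries held 2.56 and 2.16 FPKM in the mutant libraries, within the 2.15 and 2.70 FPKM of the wild-type libraries (difference -0.02, SE 0.117, limma adjusted p = 0.944). Of its 2 transcripts at E17.5 the minor one was at 0.325 and 0.332 FPKM in the mutant libraries, against 0.108 and 0.381 FPKM in the wild-type libraries, and the other carried the rest.

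C1qa, C1qb and C1qc encode the 3 chains of C1q, the recognition protein of the classical complement pathway, and are 3 consecutive protein-coding genes on chromosome 4 in RefSeq. C1qa was at 1.43 FPKM in the mutant against 1.79 in the wild-type library at E12.0, and at 3.64 against 3.56 at E12.5. Its level at E17.5 was 14.4 and 12.6 FPKM in the mutant libraries, against 12.9 and 11.9 FPKM in the wild-type libraries. The lower mutant library lay between the wild-type libraries, and the difference was 0.11 (SE 0.0832, limma adjusted p = 0.697). C1qc was at 2.55 FPKM in the mutant against 1.90 in the wild-type library at E12.0, and at 4.56 against 3.39 at E12.5. At E17.5 it was at 13.5 and 10.96 FPKM in the mutant libraries, against 12.54 and 11.01 FPKM in the wild-type libraries, and the genotypes overlapped (difference 0.04, SE 0.111, limma adjusted p = 0.896).

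C1qb was the one microglial gene whose genotypes did not overlap at E17.5, where 43.1% of all genes tested did not. It was at 2.37 FPKM in the mutant against 0.772 in the wild-type library at E12.0, and at 2.80 against 2.63 at E12.5. The E17.5 values were 9.03 and 8.77 FPKM in the mutant libraries, against 8.66 and 7.31 FPKM in the wild-type libraries. Both mutant libraries lay above both wild-type libraries, as in 20.9% of all genes. The difference was 0.14 (SE 0.0883, 95% interval -0.08 to 0.36) and did not pass (limma adjusted p = 0.689). It was 0.04 without wild-type replicate 2, the lowest of the 4 libraries.

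Tmem119, a membrane protein used to tell microglia from macrophages that enter from the blood, and Aif1, which encodes the calcium-binding microglial stain IBA1, were among the 3 lowest of the 10 genes at E17.5, with Trem2. Tmem119 was at 0.995 FPKM in the mutant against 0.573 in the wild-type library at E12.0, and at 1.06 against 0.826 at E12.5. In the late libraries it was at 2.37 and 1.81 FPKM in the mutant libraries, against 2.55 and 1.81 FPKM in the wild-type libraries (difference -0.04, SE 0.150, limma adjusted p = 0.934). Aif1 was at 0.742 FPKM in the mutant and listed at 0 in the wild-type library at E12.0, and was at 1.03 against 1.12 FPKM at E12.5. At E17.5 it was at 2.23 and 2.48 FPKM in the mutant libraries, on either side of the 2.37 and 2.31 FPKM of the wild-type libraries. Its genotype difference at E17.5 was 0.0036 (SE 0.0863, limma adjusted p = 0.991), the smallest of the 10.

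At E17.5 all 10 genes had a mean of at least 1 FPKM and were tested, and 0 of 10 passed an adjusted p of 0.05 in limma, where 0.00756% of 13235 genes did. At an unadjusted p under 0.05 it was again 0 of 10, against 5.7% of all genes, and the lowest unadjusted p among the 10, from limma, was 0.159. The difference was above 0 in 7 of the 10 and below 0 in 3, against 51% of all genes above 0. Their median difference was 0.02, against 0.00 for all genes, whose 5th to 95th percentiles ran between -0.19 and 0.19. All 10 values lay inside that range. The 95% intervals of the 10 genes reached from -0.46 to 0.37, which corresponds to 0.726-fold and 1.30-fold on the FPKM + 1 scale, so differences within those bounds were not detectable with 2 libraries per genotype. Foxd1 itself did not pass the adjusted threshold at E17.5 (difference -1.54, limma adjusted p = 0.689). Its unadjusted p in limma was 9.42e-04, and both mutant libraries lay below both wild-type libraries. In an alternative fit that gave each replicate number its own mean, Foxd1 passed (limma adjusted p = 0.00371). Those numbers are not known to pair embryos.

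Which library was left out decided the direction for 8 of the 10 genes at E17.5. The median of the 10 was -0.07 without mutant replicate 1 and 0.15 without mutant replicate 2. C1qa and C1qb kept a positive difference in every case, between 0.03 and 0.20 for C1qa and between 0.04 and 0.25 for C1qb. The number of all genes past the threshold was 1 with the 4 libraries, 4 without wild-type replicate 1, 44 without mutant replicate 1 and 10 without mutant replicate 2, and 0 of the microglial genes were among them in any of these.

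**Figure D2:**
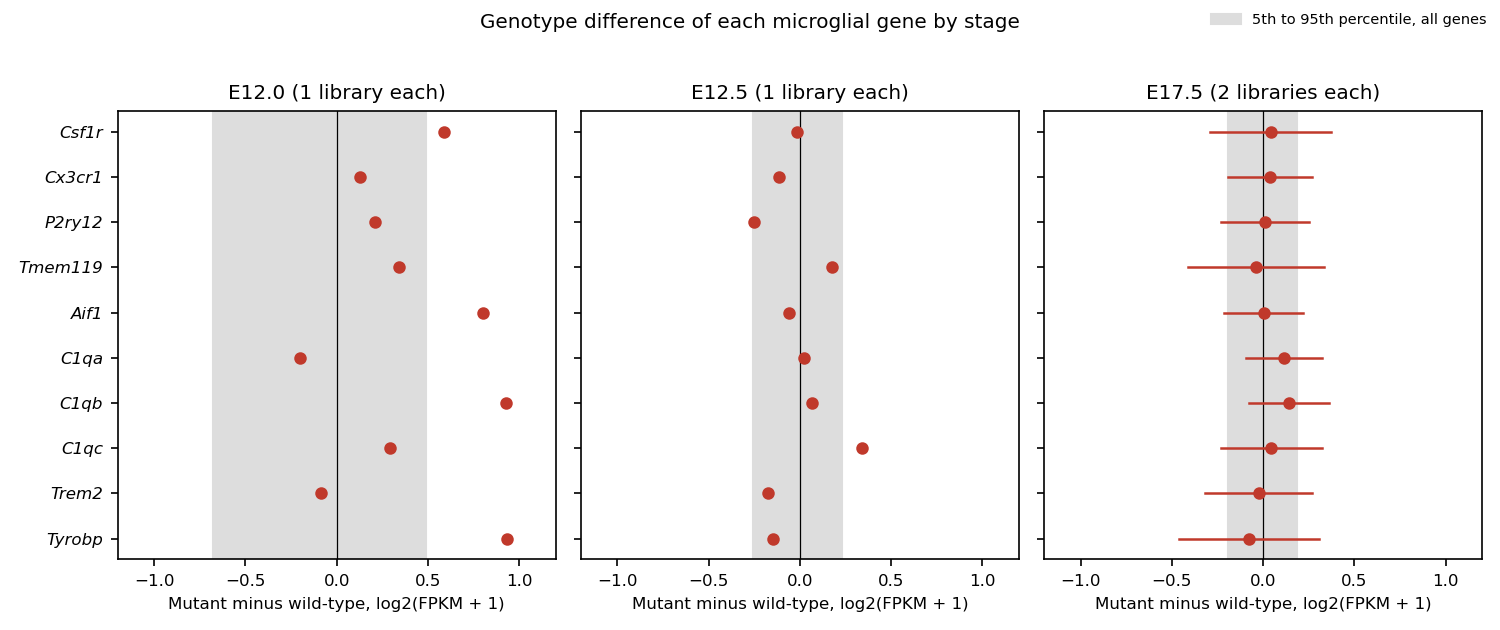
Mutant minus wild-type difference of log2(FPKM + 1) (horizontal axis) for each microglial gene, in 1 panel per stage, with the 5th to 95th percentile of all genes tested in grey and 95% intervals from limma at E17.5, where each genotype has 2 libraries. At E17.5 all 10 points lie between -0.08 and 0.14 and every interval includes 0, while at E12.0 the points spread between -0.20 and 0.93.

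The E12.0 and E12.5 pairs were fitted jointly, each stage having its own mean, so that the error is the disagreement between E12.0 and E12.5. Of the 10 genes, 7 had a mean of at least 1 FPKM and were tested, while Aif1, Tmem119 and Trem2 fell below it. 0 of the 7 passed an adjusted p of 0.05 in limma, against 0.0335% of 11952 genes, and 0 of the 7 had an unadjusted p under 0.05, against 1.41% of all. C1qb had the largest difference at 0.50 (SE 0.257), followed by Tyrobp at 0.39 (SE 0.293), C1qc at 0.32 (SE 0.159) and Csf1r at 0.29 (SE 0.220), with limma adjusted p = 0.976 for each. Cx3cr1 and P2ry12 were close to 0 at 0.01 and -0.02, and C1qa was at -0.09. Of the 7, 5 were above 0 and 2 below, against 52.2% of all genes above 0. The 95% intervals of the 7 reached from -0.54 to 1.16, so that a change of up to 2.24-fold on the FPKM + 1 scale lay inside them. Without the filter on low values Aif1 was at 0.37, Tmem119 at 0.26 and Trem2 at -0.13, each with limma adjusted p = 0.995.

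The early stages did not show the same picture. At E12.0, with 1 library per genotype and no test, 8 of the 10 genes were higher in the mutant and 2 lower, where 52.3% of all genes were higher, with a median difference of 0.32 against 0.02 for all genes. Csf1r, Aif1, C1qb and Tyrobp lay above the 95th percentile of all genes, 0.49, at 0.59, 0.80, 0.93 and 0.93. In the wild-type library of that stage these 4 genes rested on an estimated 10.5, 0, 2.85 and 0.905 fragments, against 97.5, 8.82, 36.7 and 13.2 in the mutant library, and the part of this shallow depth in the difference was not tested. At E12.5, 4 of the 10 were higher in the mutant and 6 lower, where 51.3% of all genes were higher, with a median of -0.04, and C1qc had the largest value at 0.34. The added 1 compresses such low levels, and in FPKM itself the mutant library of E12.0 stood at 3.5 times the wild-type library for Tyrobp, 3.08 times for C1qb and 2.22 times for Csf1r. These were 3 of the 7 microglial genes that averaged 1 FPKM or more at E12.0, where 4.67% of all such genes differed by 2 times or more in either direction. At E12.5 it was 0 of 8, against 0.988%. Both shares cover genes of every level from 1 FPKM up and were not matched to the low levels of the microglial genes. Between the early stages 6 of the 10 changed side, against 52.2% of all genes.

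With 1 E12 library left out and no stage block, the median of the genes tested at E12 was 0.29 with all 4 libraries and turned to -0.26 without the E12.0 wild-type library and to -0.01 without the E12.5 mutant library. It was 0.61 without the E12.5 wild-type library and 0.50 without the E12.0 mutant library. Each of these fits left the stages unequal between the genotypes, so the difference between E12.0 and E12.5 enters the genotype difference. They cannot tell a dependence on 1 library from a difference between stages. The number of all genes past the threshold, 4 with the block and 78 without it, was 64 to 80 in these fits. The microglial genes past it numbered 0 in each of them.

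Over all 3 stages, with stage as a block, 8 of the 10 genes were higher in the mutant and 2 lower, P2ry12 at -0.01 and Trem2 at -0.08. The share of all genes above 0 was 50.7%. The median was 0.13 against 0.00 for all genes. In limma 0 of the 10 passed the adjusted threshold, as did 0% of 12520 genes, and 0 of the 10 had an unadjusted p under 0.05, against 5.55% of all genes. C1qb came nearest, at 0.32 (SE 0.150), followed by C1qc at 0.18 (SE 0.0936), with limma adjusted p = 0.749 for each. C1qb was at 0.12 without the E12.0 wild-type library. Without both E12.0 libraries, an alternative chosen after the data were seen, the median of the 10 was 0.00.

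Whether the genotype difference changed with age was tested as the E17.5 difference minus the E12 difference. It was above 0 for 4 genes and below 0 for 6, where 50.4% of all genes were above 0, with a median of -0.26 against 0.00 for all genes. Tyrobp had the most negative value at -0.47 (SE 0.383) and C1qa the most positive at 0.20 (SE 0.148), each with limma adjusted p = 0.749. In limma 0 of the 10 passed, against 0.0319% of 12520 genes, and 0 of the 10 had an unadjusted p under 0.05, against 3.95% of all. The outcome rested on single early libraries. Without the E12.5 wild-type library 2 genes passed, Aif1 at -0.80 (limma adjusted p = 0.0349) and C1qb at -0.79 (limma adjusted p = 0.0459), among 1463 genes in all, and without the E12.5 mutant library Aif1 passed with the same difference (limma adjusted p = 0.0353), among 1212. Both fits set E17.5 against the E12.0 pair alone. Without either E12.0 library the median of the 10 was 0.07 and 0 passed.

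Across stages, all 10 genes had every E17.5 library above every E12 library, against 45.4% of 12520 genes. In both genotypes 9 of the 10 were lowest at E12.0, higher at E12.5 and highest at E17.5, against 42.0% of the same 12520 genes. Trem2 was the exception, at 0.879 and then 0.781 FPKM in the mutant over the early stages. The E17.5 mean stood at 1.97 to 3.72 times the E12.5 level in the mutant (median 2.85) and at 1.55 to 3.48 times in the wild type (median 2.62). C1qa had the largest ratio in both genotypes, 3.72 in the mutant and 3.48 in the wild type. The smallest ratio belonged to Tmem119 in the mutant, at 1.97, and to P2ry12 in the wild type, at 1.55.

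On the log2(FPKM + 1) scale the E17.5 level was higher than the E12.5 level by 1 or more for 6 of the 10 genes in each genotype, against 15.2% of all genes in the mutant and 14.2% in the wild type. The median difference of the 10 was 1.24 in the mutant and 1.11 in the wild type, where the median of all genes was 0.09 and 0.08. Between E12.0 and E12.5 the same medians were 0.42 in the mutant and 0.79 in the wild type, each over 8 of the 10 genes. The medians of all genes there were 0.36 in the mutant and 0.38 in the wild type, so the early step of the 10 in the mutant was close to that of all genes.

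The make-up of the microglial signal was alike in the 4 E17.5 libraries. C1qa, C1qc and Tyrobp held the 3 highest places in each, C1qb and Csf1r the next 2, then Cx3cr1 in sixth and P2ry12 in seventh place. Tmem119, Aif1 and Trem2 held the lowest 3. Within each of these blocks the order differed between libraries. The 3 C1q genes made up 47.5% and 49.1% of the summed FPKM in the mutant libraries, against 47.5% and 45.0% in the wild-type libraries. They stood at 40.9% in the mutant against 45.7% in the wild-type library at E12.0, and at 44.1% against 38.2% at E12.5, so the genotypes were in opposite order at the early stages.

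P2ry12 had a larger share of the signal at E12 than at E17.5. It made up 9.59% of the sum in the mutant against 11.8% in the wild-type library at E12.0, and 9.17% against 11.6% at E12.5. At E17.5 its share was 5.65% and 7.16% in the mutant libraries, against 5.71% and 7.37% in the wild-type libraries, so all 4 lay below all 4 early values. Cx3cr1 held 9.75% in the mutant against 13.3% in the wild-type library at E12.0, and 8.29% against 9.26% at E12.5. At E17.5 it held 8.65% and 8.76% in the mutant libraries, against 8.81% and 8.58% in the wild-type libraries, so both E12.0 shares lay above every E17.5 share. C1qa stood at 1.60 and 1.44 times C1qb in the mutant libraries at E17.5, against 1.49 and 1.62 times in the wild-type libraries. Tyrobp stood at 5.21 and 4.31 times its partner Trem2 in the mutant libraries, against 5.38 and 4.51 times in the wild-type libraries. At E12.0 the ratio of Tyrobp to Trem2 was 2.27 in the mutant and 0.573 in the wild-type library, which held an estimated 0.905 and 3.62 fragments of them.

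**Figure D3:**
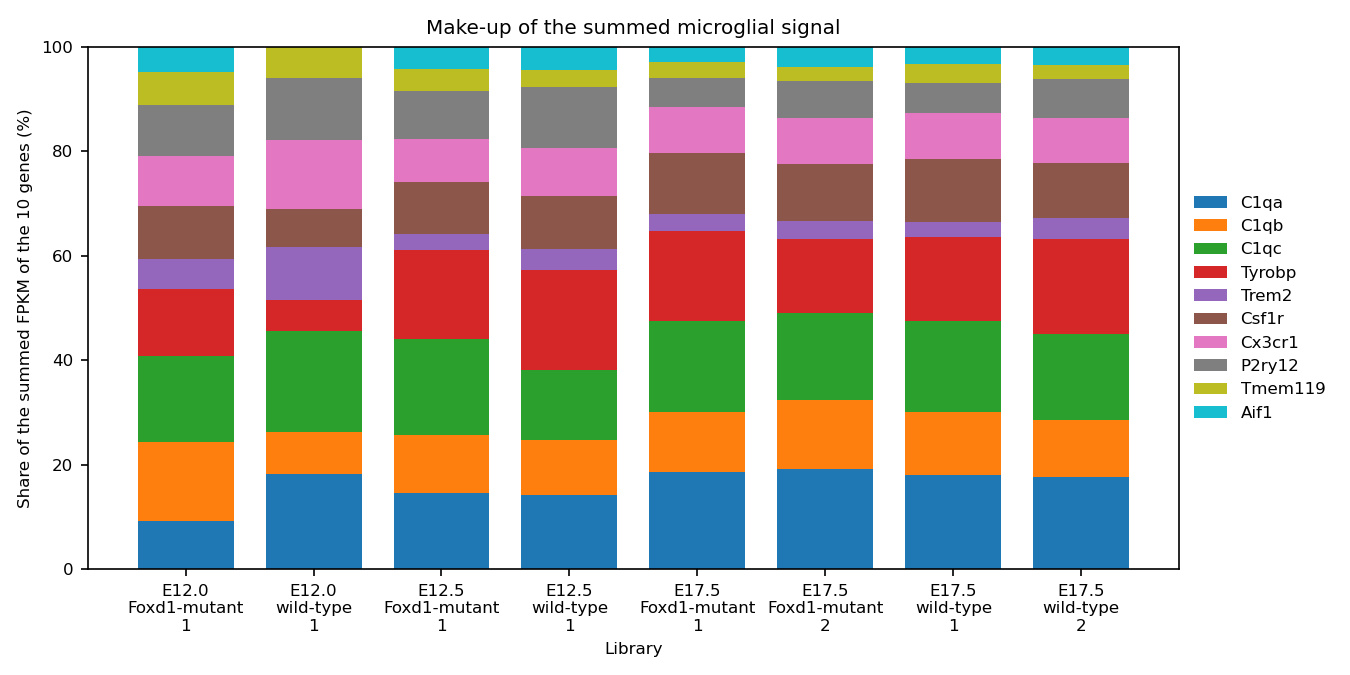
Share of the summed FPKM of the 10 microglial genes (vertical axis, percent) held by each gene, in 1 stacked bar per library. The 4 E17.5 bars are alike, with the C1q genes at 45.0% to 49.1%, while the E12.0 wild-type bar has no Aif1 and little Tyrobp.

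Of 6 listed ligands of microglial receptors, 5 had every E17.5 library above every E12 library, Tgfb1 being the exception. Of 12520 genes averaging 1 FPKM or more, 45.4% did. Between genotypes at E17.5, 0 of the 6 passed either threshold in limma. Among all genes tested, 0.00756% passed the adjusted and 5.7% the unadjusted one. By expression the leading 3 were Apoe, a lipoprotein bound by TREM2, Clu, another lipoprotein, and Cx3cl1, which encodes fractalkine. Cx3cl1 was at 23.6 and 18.9 FPKM in the mutant libraries at E17.5, against 23.4 and 23.6 FPKM in the wild-type libraries, with a difference of -0.15 (SE 0.105, limma adjusted p = 0.697). Apoe was at 204 and 163 FPKM in the mutant libraries, against 209 and 189 FPKM in the wild-type libraries, and overlapped. Of the Csf1r ligands, named here for that role and after their values were seen, Csf1 was at 3.76 and 3.24 FPKM in the mutant libraries against 3.21 and 2.79 FPKM in the wild-type libraries, without overlap (0.17, limma adjusted p = 0.689). Among all genes tested 43.1% did not overlap. Il34 was at 1.34 and 0.755 FPKM against 1.28 and 1.07 FPKM at E17.5, and at 0.226 FPKM or less in the 4 E12 libraries.

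Among 16 other microglia-enriched genes, 9 could be tested at E17.5, with 8 higher and 1 lower in the mutant, a median of 0.09 and 0 past the adjusted threshold in limma. Over all genes tested 51% were higher. Fcrls and Golm1 were among those at an unadjusted p under 0.05, where 5.7% of all genes were. Fcrls, a microglial Fc receptor-like gene, was at 5.61 and 5.21 FPKM in the mutant libraries, against 4.55 and 4.11 FPKM in the wild-type libraries (difference 0.27, limma adjusted p = 0.689). Golm1, a Golgi membrane protein gene that neural cells also express, was at 13.5 and 14.5 FPKM in the mutant libraries, against 11.9 and 11.5 FPKM in the wild-type libraries (0.24, limma adjusted p = 0.689). Both mutant libraries lay above both wild-type libraries for both genes, as in 20.9% of all genes. Cst3 and Tgfbr1, with Golm1 the most abundant of the list, are also widely expressed outside microglia and differed by 0.09 and 0.02.

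Regulators of the myeloid lineage were low. Of 11, 7 were tested at E17.5, with 4 higher and 3 lower in the mutant, against 51% of all genes higher, and 0 past the adjusted threshold in limma. Spi1, named for its motif above, was at 0.603 FPKM in the mutant against 0.234 in the wild-type library at E12.0 and at 0.541 against 0.546 at E12.5. At E17.5 it was at 1.54 and 1.28 FPKM in the mutant libraries, against 1.61 and 1.29 FPKM in the wild-type libraries, and its 4 values lay above all early ones as those of the 10 genes did. Cebpb, a factor of inflammatory gene control, was at 1.04 and 1.10 FPKM in the mutant libraries against 1.41 and 1.45 FPKM in the wild-type libraries, with a difference of -0.23 that passed at an unadjusted p under 0.05 alone (limma adjusted p = 0.689). Mef2c, the most abundant at E17.5 and also a neuronal factor, was at 7.99 and 15.0 FPKM in the mutant libraries against 7.94 and 6.96 FPKM in the wild-type libraries, and Maf differed by 0.23.

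Of 16 genes listed for Trem2 and Tyrobp signalling, which include other receptors and an adaptor, 2 were high enough to test at E17.5, and 0 passed. Inpp5d, a phosphatase that restrains this signalling, was at 1.42 and 1.30 FPKM in the mutant libraries, against 1.47 and 1.26 FPKM in the wild-type libraries, and Vav2, a more widely expressed exchange factor, differed by -0.07. Plcg2 was at 1.03 and 0.958 FPKM against 0.969 and 0.974 FPKM. In the rest of the complement cascade 6 of 15 were tested, with 4 higher and 2 lower, against 51% of all genes higher, and 0 past the adjusted threshold in limma. Cd93, an endothelial and myeloid receptor, was at 10.0 and 9.81 FPKM in the mutant libraries against 8.88 and 8.43 FPKM in the wild-type libraries (0.18, unadjusted p under 0.05, limma adjusted p = 0.689). Serping1, the inhibitor of the C1 proteases, differed by 0.16 and C1qbp by -0.06. C3, which C1q action leads to, was named for that role and stayed at or below 0.557 FPKM in all 8 libraries.

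Of 16 genes of phagocytic microglia in proliferative regions, 10 were tested at E17.5, with 6 higher and 4 lower, a median of 0.02 and 0 past either threshold. Fabp5, Lamp1 and Ctsd were the most abundant, are also expressed by other cells, and differed by -0.09, -0.01 and -0.08. Of 24 genes shared by macrophages and leukocytes, 16 were tested, with 12 higher and 4 lower, a median of 0.08 and 0 past the adjusted threshold in limma. Among all genes tested at E17.5, 51% were higher and 5.7% had an unadjusted p under 0.05 in limma. Lcp1, an actin-bundling protein of blood cells, was at 4.68 and 4.69 FPKM in the mutant libraries against 3.95 and 3.55 FPKM in the wild-type libraries (0.26, unadjusted p under 0.05, limma adjusted p = 0.689). Coro1a, an actin regulator also found in neurons, was at 31.6 and 26.1 FPKM against 33.6 and 34.1 FPKM (-0.23, unadjusted p just under 0.05, limma adjusted p = 0.689). Ctss and Cyba differed by 0.11 and -0.08.

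Several of the 10 genes are also expressed by macrophages of the brain's borders, and markers of those cells and of the meninges differed between the E17.5 libraries. The 12 border-associated macrophage genes summed to 49.0 and 36.2 FPKM in the mutant libraries, against 40.9 and 26.6 FPKM in the wild-type libraries. At E12 the sum was 4.26 FPKM in the mutant against 4.06 in the wild-type library at E12.0, and 4.91 against 4.24 at E12.5. In each E12 library 2 of the 12 reached 1 FPKM, Pf4 at 1.94 to 2.79 FPKM and Stab1, named here for its level, at 1.38 to 1.72 FPKM. Other members were lower at E12, among them Mrc1 at 0.190 FPKM or less, Lyve1 at 0.0364 or less and Cd163 listed at 0 in all 4 libraries. In the E17.5 comparison 6 of the 12 were tested, 5 higher and 1 lower in the mutant, with a median of 0.33 and 0 past either threshold in limma. Among all genes tested 51% were higher. Mrc1, F13a1 and Pf4 were at 0.43, 0.44 and 0.26.

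The 11 meningeal genes summed to 280 and 202 FPKM in the mutant libraries at E17.5, against 249 and 153 FPKM in the wild-type libraries, and to 8.56 to 11.9 FPKM at E12. Of the 11, 10 were higher in the mutant, with a median of 0.37, where 51% of all genes were higher. In limma 5 of the 11 had an unadjusted p under 0.05, against 5.7% of all genes, and 0 passed the adjusted threshold. Wild-type replicate 2, the lowest in both sums, was also the lowest E17.5 library for C1qa, C1qb, Csf1r and Cx3cr1, and mutant replicate 1, the highest in both sums, was the highest for C1qa, C1qb, C1qc, Csf1r, Cx3cr1 and Tyrobp. Other members ran the other way, since wild-type replicate 2 was the highest of the 4 for P2ry12 and Trem2, and mutant replicate 1 the lowest for Aif1. The part of border tissue in the levels of the 10 genes was not tested. Genes of monocytes, granulocytes and lymphocytes were near the floor, with the 13 of 14 listed genes found at every stage summing to 2.77 and 1.67 FPKM in the mutant libraries against 3.36 and 2.77 FPKM in the wild-type libraries at E17.5, and to between 0 and 0.472 FPKM at E12. P2ry12 and Tmem119, used to tell microglia from other macrophages, were above 0 in all 8 libraries, but Tmem119 was only at 0.573 to 1.06 FPKM at E12. In the E12.0 wild-type library P2ry12 and Tmem119 rested on an estimated 9.69 and 4.79 fragments. The cells that these transcripts came from were not tested.

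**Figure D4:**
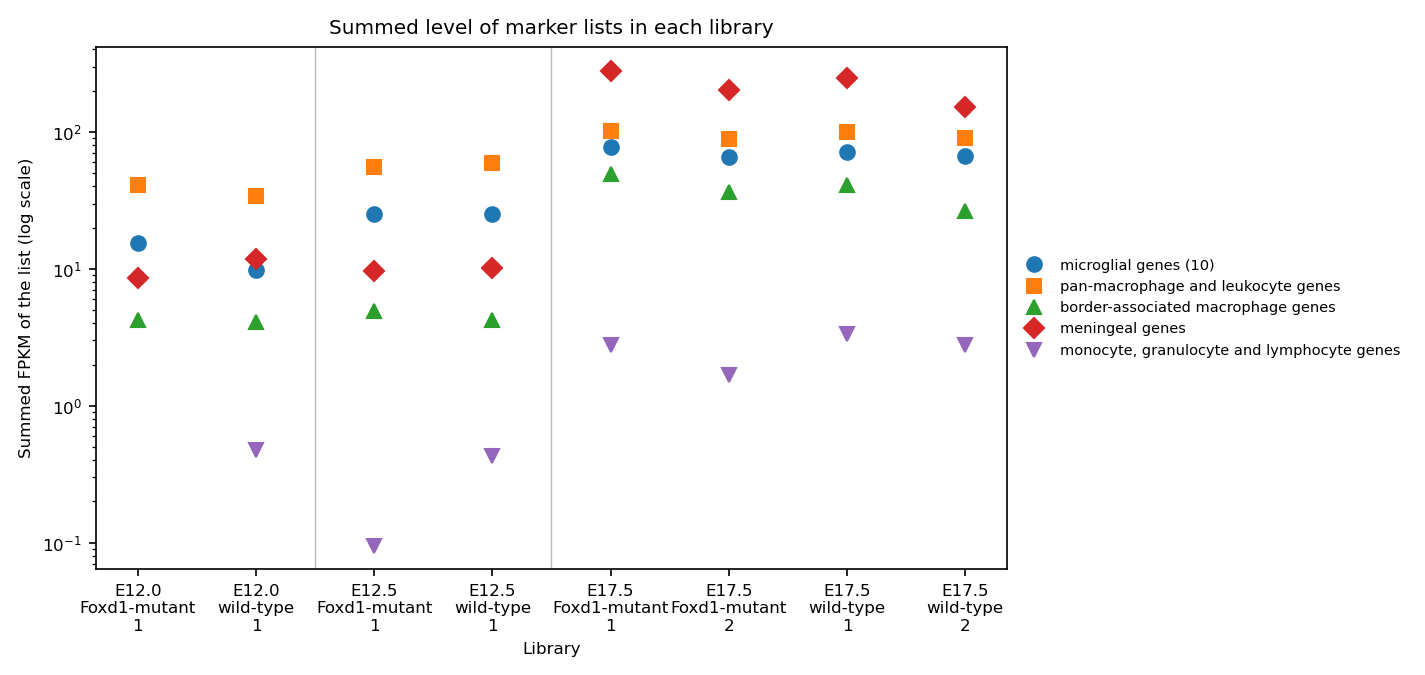
Summed FPKM (log scale) of the microglial genes and of 4 lists of markers of related cells and of the meninges in each library, with mutant libraries left of wild-type libraries at each stage. Meningeal genes and border-associated macrophage genes are 8.56 to 11.9 and 4.06 to 4.91 FPKM at E12 and 153 to 280 and 26.6 to 49.0 FPKM at E17.5, and the monocyte list, at 0 and so not drawn in the E12.0 mutant library, is the lowest throughout.

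The genes whose pattern was most like that of the 10 were sought over the 8 libraries, first with values centred at E12 and at E17.5 apart. Of 11332 genes, Bcap31, Rasa3, Micu2, Polr2g, Enoph1, Trf, Ndufb3 and Cactin came closest to the mean of the 10, with Pearson r between 0.993 and 0.998, and 1280 genes had an r over 0.95. Without centring Rasa3 led with an r of 0.999, followed by Plat, Fhl2, Enoph1, 4931406P16Rik, Plcb4, Acaa2 and B4galt4, and 2469 genes had an r over 0.95. None of these 14 genes is on any of the microglial or macrophage lists. The 8 points share their libraries, and the low values of the shallow E12.0 wild-type library enter each of these correlations.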

How the data were processed

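The deposited values are FPKM, made by the authors with TopHat and Cufflinks on mouse build mm9 per the submitters' processing notes, from paired-end reads of 100 cycles on a HiSeq 2500 per the labels' protocols; versions are not given in the sources used here. The E12 files hold gene rows and the E17.5 files transcript rows. Rows with the same symbol were summed, 8 E12 rows without a symbol (0.0285% to 0.0360% of FPKM) were left out, and 1 symbol was joined by accession. Small RNA genes held 9.77% to 24.5% of FPKM.

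From the deposited FPKM the values log2(FPKM + 1) were computed, and genes averaging 1 FPKM or more in a fit were tested with limma 3.58.1 (R 4.3.3, variance trend, two-sided, Benjamini-Hochberg over all genes tested, threshold 0.05). The fits were E17.5 alone, E12 with a stage block, all stages with a stage block, and the change of the genotype difference with age, which share libraries. FPKM are not counts, so no count model was the main result. Nothing states that pools were separate litters, so p-values measure the spread between these libraries, which may be technical. The script was tested on simulated data. Whether the replicate numbers at E17.5 pair controls with mutants is not known. Over 13235 genes, the deviations of same-numbered libraries from their genotype means had a correlation of 0.0280. That value is over all genes and does not settle the question for single genes or lists.

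Depth was estimated from single-transcript rows over 2500 nt, taking off a fragment length of 170 nt, and the share of values up to 5 fragments that came out whole, to within 0.1, was 79.2% to 80.9% at E17.5 and 31.1% to 40.7% at E12. The intervals printed cover the spread between libraries. Named genes from each list were the 3 of highest mean FPKM and those with an unadjusted p under 0.05 at E17.5 or E12; others are marked in the text, and some that this rule names are not reported here. The members, lists and tests were chosen with earlier results of these data known. Promoters came from RefSeq on GRCm38.p6, a later build than that of the files, and no coordinates were carried across. Csf1r, on chromosome 18, and genes without an entry have no sequence shown. Python 3.11.15, pandas 2.3.3, numpy 2.4.6 and matplotlib 3.10.9 were used. Alternatives changed the pseudocount, filter, normalization, variance model, row joining, blocks and libraries.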

Additional observations from a re-analysis of the deposited data

Results flagged for a closer look

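For 6 of the 10 microglial genes the E12.0 pair and the E12.5 pair lay on opposite sides, with 1 library per genotype at each stage. The difference itself was not tested, and 52.2% of all genes also changed side. The E12.0 genotype difference minus the E12.5 one, on the log2(FPKM + 1) scale, was 1.08 for Tyrobp, 0.86 for Aif1, 0.61 for Csf1r, 0.46 for P2ry12, 0.24 for Cx3cr1 and -0.22 for C1qa. The E12.0 wild-type library, at an estimated 4.03 M fragments, held an estimated 0.905 fragments of Tyrobp and listed Aif1 at 0. The part of depth in these values was not tested.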

How the results depend on the processing

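Of 585 values of single microglial genes under the alternatives, 510 kept their direction and side of the threshold, 72 changed sign and 3 passed a threshold not passed before. Of the sign changes 57 came from leaving out 1 library. At E17.5 those ranges of the log2 difference were -0.057 to 0.13 for Cx3cr1, -0.11 to 0.20 for Csf1r, -0.051 to 0.058 for Aif1, -0.099 to 0.12 for P2ry12, -0.21 to 0.13 for Tmem119, -0.092 to 0.18 for C1qc, -0.14 to 0.092 for Trem2 and -0.32 to 0.16 for Tyrobp. At E12 they were -0.26 to 0.27 for Cx3cr1, -0.23 to 0.81 for Csf1r, -0.45 to 0.41 for P2ry12, -0.56 to 0.38 for C1qa, -0.020 to 1.02 for C1qb, -0.0075 to 0.64 for C1qc and -0.55 to 1.34 for Tyrobp. Those E12 fits had no stage block, so the difference between E12.0 and E12.5 enters these ranges. Over all stages, with the stage block, the ranges were -0.019 to 0.068 for Cx3cr1, -0.018 to 0.27 for Aif1, -0.076 to 0.077 for P2ry12, -0.043 to 0.084 for C1qa and -0.10 to 0.30 for Tyrobp. For the change with age they were -0.089 to 0.15 for Cx3cr1, -0.55 to 0.060 for Csf1r, -0.80 to 0.065 for Aif1, -0.20 to 0.26 for P2ry12, -0.79 to 0.078 for C1qb, -0.011 to 0.22 for Trem2 and -1.01 to 0.068 for Tyrobp.

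The other 15 sign changes were of values near 0 or came with both E12.0 libraries left out. Under quantile normalization Aif1 was at -0.016 and P2ry12 at -0.0024 at E17.5, and P2ry12 at -0.00070 for the change with age. With a pseudocount of 0.1 P2ry12 was at 0.0026 at E12 and 0.0083 over all stages, and C1qa at -0.0079 over all stages. Cx3cr1 at E12 was at -0.0019 with a pseudocount of 5 and at -0.018 with small RNA genes left out. With both E12.0 libraries left out, chosen after the data were seen, Cx3cr1, Aif1 and Tyrobp over all stages were at -0.013, -0.018 and -0.10, and the change with age was 0.060 for Csf1r, 0.065 for Aif1, 0.078 for C1qb and 0.068 for Tyrobp, with a median of 0.073 over the 10 and 48 genes in all past the threshold. The cause was not tested.

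The number of all genes past the threshold moved more. At E17.5 it was 1, and 0 without a filter or with a mean of at least 5 FPKM, 16 with the replicate block (2 pairs whose numbers are not known to pair embryos), and 1 to 44 with a library left out. At E12 it was 4, and 1 with a pseudocount of 5, without a filter, with quantile normalization or without a variance trend, 78 without the stage block, and 64 to 80 with a library left out, where the median of the microglial genes ran over -0.26 to 0.61. For the change with age it was 4, and 1 with a pseudocount of 0.1 or 5 or quantile normalization, 0 without a filter or with a mean of at least 5 FPKM, 2 with robust spread, and 0 to 1463 with a library left out, where the median of the microglial genes ran over -0.36 to 0.073 and 0 to 2 of them passed. In every other setting 0 microglial genes passed in any comparison. With a mean of at least 5 FPKM no microglial gene was left at E12. The whole 300 bases of the promoter table held GAGGAA in 28.3% of promoters, AGGAAGT in 9.35% and the ETS-IRF composite in 2.72%.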

Other observations

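Markers of the other cells of the tissue gave the following at E17.5, with 0 past the adjusted threshold in limma in any list. Among all genes tested there, 51% were higher in the mutant and 5.7% had an unadjusted p under 0.05 in limma. Of 12 endothelial genes 11 were tested, 10 higher and 1 lower in the mutant, with a median of 0.13 and 0 at an unadjusted p under 0.05. Of 10 neuronal genes 7 were higher and 3 lower, with a median of 0.04. Of 10 genes of astrocytes and radial glia 4 were higher and 6 lower, and Aldoc, a glycolytic enzyme gene, was at 42.9 and 40.0 FPKM in the mutant libraries against 48.4 and 47.4 FPKM in the wild-type libraries (-0.21, unadjusted p under 0.05, limma adjusted p = 0.689). Of 8 genes of the oligodendrocyte lineage 1 was higher and 7 lower, with Olig1 at -0.30 at an unadjusted p under 0.05. Of 10 erythroid genes 9 were tested, 6 higher and 3 lower.

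Embryonic globin genes marked the stages more sharply than the microglial genes did. Hbb-bh1 was at 193 FPKM in the mutant against 163 FPKM in the wild-type library at E12.0 and at 60.7 against 51.3 FPKM at E12.5, and lay at 0.525 FPKM or less in the 4 E17.5 libraries.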
